A study of Saccharomyces cerevisiae with 222 samples.

Results

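The 2 lists of EdU summits from S-phase cells of the CDK/DDK bypass were set against the 2 lists from the CDK bypass, to find the sites that differed once the Dbf4-dependent kinase (DDK) was bypassed in addition to cyclin-dependent kinase (CDK). They are 4 of the 222 samples of the series and together hold 1525 summits on the 16 nuclear chromosomes of budding yeast. The 2 control lists had no part in defining the sites and are given last, as lists from outside the comparison. A summit is the position of highest enrichment in a peak, and its score is the −log10 of the q-value of that peak.

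CDK/DDK bypass cells (strain YKR1447) expressed Dpb11, an Sld2 variant with a phosphomimetic change and Dbf4 from galactose-inducible promoters. CDK bypass cells (strain YKR1445) expressed Dpb11 and the Sld2 variant without the extra Dbf4. Control cells (strain E3087) are the EdU-incorporating W303 strain from which the others were made, with neither bypass. All 3 strains were arrested in G1 with α-factor and received galactose for 3 h to express the bypass proteins. In the paper both bypasses led to DNA replication in G1 under galactose, with more of it in CDK/DDK bypass. The groups may thus have entered labeling with different amounts of replicated DNA, which would also be in their total DNA. The extent in these cells was not tested here. The cells were then released into 100 µM EdU and 200 mM hydroxyurea (HU) for 90 min. EdU, a thymidine analog, marks newly made DNA, and HU slows forks soon after origins fire. Each group was 1 strain in 2 replicates, and no source used here says whether the replicates came from separate cultures, so p-values measure only the spread between these lists.

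Replication in yeast starts at autonomously replicating sequences (ARSs), which the origin recognition complex binds through a short T-rich consensus. DDK phosphorylates the Mcm2-7 helicase loaded at origins, and CDK phosphorylates Sld2 and Sld3, which then bind Dpb11. Origins near centromeres are known to fire early in S phase because Dbf4 is recruited to kinetochores. Ty elements are the long terminal repeat (LTR) retrotransposons of yeast and are often inserted beside tRNA genes.

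The lists behaved as early S-phase lists at marker origins. All 7 well-known early origins examined (ARS1, ARS305, ARS306, ARS307, ARS315, ARS606 and ARS607) had a summit within 2.5 kb in each of the 6 lists. None of 5 late origins (ARS522, ARS603, ARS609, ARS1412 and ARS1413) and none of 6 ARSs of the silent mating-type loci had a summit in any list. Read numbers were not used here. The paper gives a single approximate read number for all samples, so the exact depth of each list is unknown. Absence of a summit means only that no peak was called. Positions are those of the sacCer3 (R64) build, counted from 1.

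Examples of the origins that differed are shown by their best match to the 11 bp ARS consensus, in capitals. Each has 15 bases on either side, 5′ to 3′ on the strand of the match (both strands were searched). The examples are a part of such origins and were not chosen by score throughout, so they do not give the share with a match. The first set had a summit within 2.5 kb in each CDK/DDK bypass list and none in CDK bypass.
ARS432: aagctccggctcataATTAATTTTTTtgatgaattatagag
ARS813: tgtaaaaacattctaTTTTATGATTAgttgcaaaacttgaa
ARS1507: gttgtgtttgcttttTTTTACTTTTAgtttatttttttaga
ARS1612: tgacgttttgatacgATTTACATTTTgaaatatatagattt
ARS1625: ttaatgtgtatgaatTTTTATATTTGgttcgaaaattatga
The second set had a summit in each CDK bypass list and none in CDK/DDK bypass.
ARS106: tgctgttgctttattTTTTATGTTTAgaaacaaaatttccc
ARS1020: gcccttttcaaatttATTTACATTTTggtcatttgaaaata
ARS1426: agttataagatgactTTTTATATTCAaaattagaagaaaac
ARS1529: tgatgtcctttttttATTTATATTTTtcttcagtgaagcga
The third set was called in all 4 lists but held a much lower rank in CDK/DDK bypass, and flanks centromere 9.
ARS920: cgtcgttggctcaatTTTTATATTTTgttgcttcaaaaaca
ARS919: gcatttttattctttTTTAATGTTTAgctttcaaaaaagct
The windows were read from the RefSeq sequence of R64. The first set has ARS432 at chr4:1159274-1159314 (plus strand), ARS813 at chr8:245776-245816 (plus strand), ARS1507 at chr15:72676-72716 (plus strand), ARS1612 at chr16:261573-261613 (minus strand) and ARS1625 at chr16:695458-695498 (plus strand). The second set has ARS106 at chr1:70404-70444 (minus strand), ARS1020 at chr10:654522-654562 (minus strand), ARS1426 at chr14:635775-635815 (plus strand) and ARS1529 at chr15:981499-981539 (plus strand). The third has ARS920 at chr9:357213-357253 (plus strand) and ARS919 at chr9:342004-342044 (minus strand). ARS1612, ARS106, ARS1020, ARS1529 and ARS920 matched all 11 positions, ARS432 matched 9 and the others matched 10. Of the 352 annotated ARSs, 35.2% held a match at all 11 positions and 85.2% a match at 10 or more. A match at all 11 positions was found in 1 of the 9 ARSs called only in CDK/DDK bypass (11.1%), in 9 of the 21 called only in CDK bypass (42.9%) and in 44.0% of those called in all 4 lists. A match describes the letters of the feature only.

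Ty elements held few summits in CDK/DDK bypass and many in CDK bypass and control. CDK/DDK bypass lists had 8 and 10 summits inside Ty elements, CDK bypass lists had 81 and 121, and control lists had 65 and 126. Both CDK/DDK bypass lists lay below all the other lists, and CDK bypass overlapped control. As a share of the nuclear summits these were 2.42% and 2.63% in CDK/DDK bypass, 20.9% and 28.3% in CDK bypass and 20.4% and 32.1% in control. The difference of CDK/DDK bypass from CDK bypass was -92 summits (exact two-sided permutation test over 6 assignments of 2 against 2 lists, p = 0.33, the smallest this design can give). Of the 50 annotated elements, 5 and 7 held a summit in CDK/DDK bypass, 44 and 47 in CDK bypass and 42 and 45 in control.

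**Figure D1:**
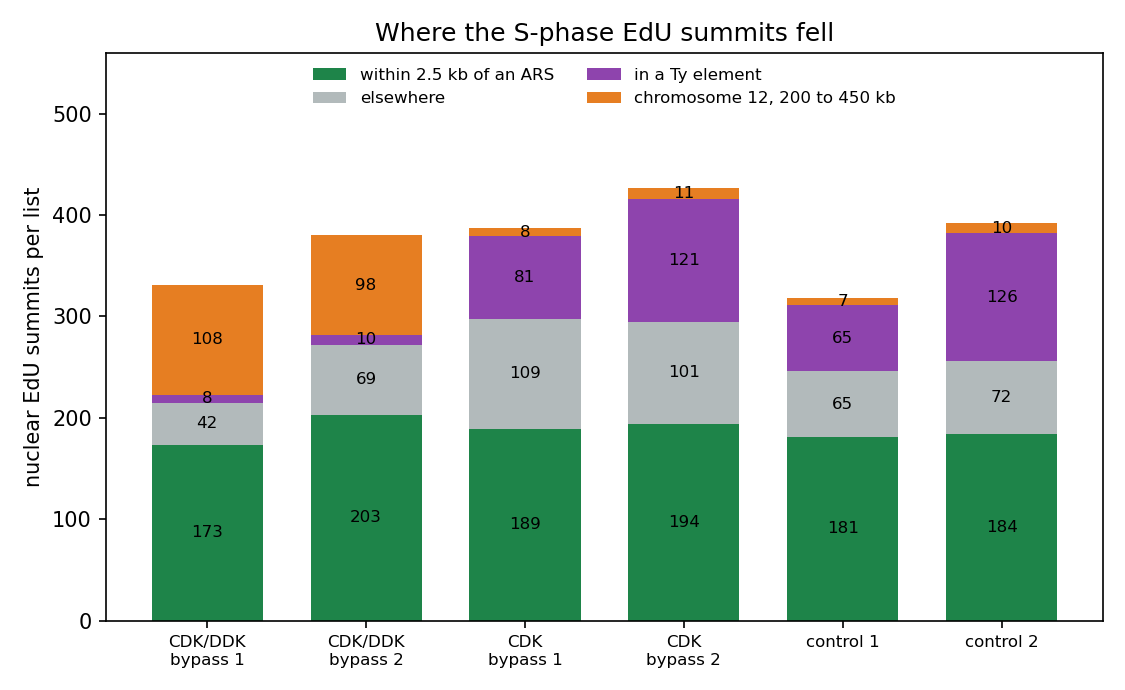
Nuclear EdU summits per list (y axis), split by position, for the CDK/DDK bypass, CDK bypass and control replicates (x axis). The purple Ty part holds 8 and 10 summits in CDK/DDK bypass and 81 and 121 in CDK bypass, while the green part near ARSs holds 173 and 203, against 189 and 194.

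Of the 50 elements, 37 (74%) held a summit in both CDK bypass lists and in neither CDK/DDK bypass list, and 0 showed the reverse. By count, Ty3 stood apart from the larger families. Among 31 elements of Ty1, the most numerous family, 2 and 3 were called in CDK/DDK bypass and 26 and 30 in CDK bypass. Among 13 Ty2 elements, 1 and 1 were called in CDK/DDK bypass and 13 and 12 in CDK bypass. Both Ty3 elements were called in every list, with 5 and 5 summits in CDK/DDK bypass against 6 and 5 in CDK bypass. The single Ty5 element had no summit in any list. Ty copies within a family are nearly identical, and the lists do not tell to which copy a read belonged, so counts of elements may exceed the number of copies that were labeled. The elements are those of the reference strain S288C, and W303 strains need not carry each of them at the same place.

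Of the 3 Ty4 elements, YHLWTy4-1 on chromosome 8 and YPLCTy4-1 on chromosome 16 carried the highest-ranked regions without an ARS that were called only in CDK bypass. Their highest summits fell between bases 5485 and 5540 of the element in the CDK bypass lists. The stretch around those of replicate 2 is printed to show that both copies read the same there, in the orientation of the element, with the 11 bases around the highest summit of YHLWTy4-1 in CDK bypass in capitals.
YHLWTy4-1: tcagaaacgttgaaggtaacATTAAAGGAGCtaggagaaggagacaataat
YPLCTy4-1: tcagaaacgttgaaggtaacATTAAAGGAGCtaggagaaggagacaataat
The windows run from base 5460 to base 5510 of either element (chr8:90998-91048 on the plus strand and chr16:437603-437653 on the minus strand). Over 1001 bases around this point the copies were equal at 1001. YHLWTy4-1 scored 59.9 and 104 at its highest summits in the CDK bypass lists, and YPLCTy4-1 scored 57.7 and 78.5. Neither had a CDK/DDK bypass summit, and both were called in both control lists. The remaining copy, YJLWTy4-1 on chromosome 10, was called in 1 CDK/DDK bypass list with a score of 10.4, and in the CDK bypass lists with 13.4 and 13.5.

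Scores near ARSs were lower in CDK/DDK bypass. Summits near an ARS had a median score of 37.5 and 40.4 in CDK/DDK bypass, 179 and 202 in CDK bypass and 505 and 601 in control. The 8 and 10 Ty summits of CDK/DDK bypass had a median score of 9.19 and 11.5, and the 81 and 121 of CDK bypass 10.3 and 11.4, where they ranked in the lower part of the lists (median percentiles of 36.7 and 37.0). Their highest scores were lower in CDK/DDK bypass, at 23.8 and 41.4, than in CDK bypass, at 174 and 255. In YGRWTy3-1, called in all 4 lists, the top scores were 7.30 and 8.20 in CDK/DDK bypass and 49.4 and 53.4 in CDK bypass, while in YARCTy1-1 they overlapped, at 11.1 and 20.6 against 4.03 and 38.8. The Ty comparison was therefore repeated by rank. With chromosome 12 from 200 to 450 kb, a segment rich in CDK/DDK bypass summits, left out and every list cut to its 223 best summits, 8 and 8 summits lay in Ty elements in CDK/DDK bypass and 30 and 32 in CDK bypass. These fell in 5 and 7 elements and in 26 and 26 elements. In that setting 19 elements had a summit in each CDK bypass list and none in CDK/DDK bypass. In the band between the 50th and 75th percentile of their own list, 85.7% and 80.4% of the CDK bypass summits near an ARS had a CDK/DDK bypass summit within 2.5 kb. The corresponding shares for Ty summits were 33.3% of 12 and 21.7% of 23.

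**Figure D2:**
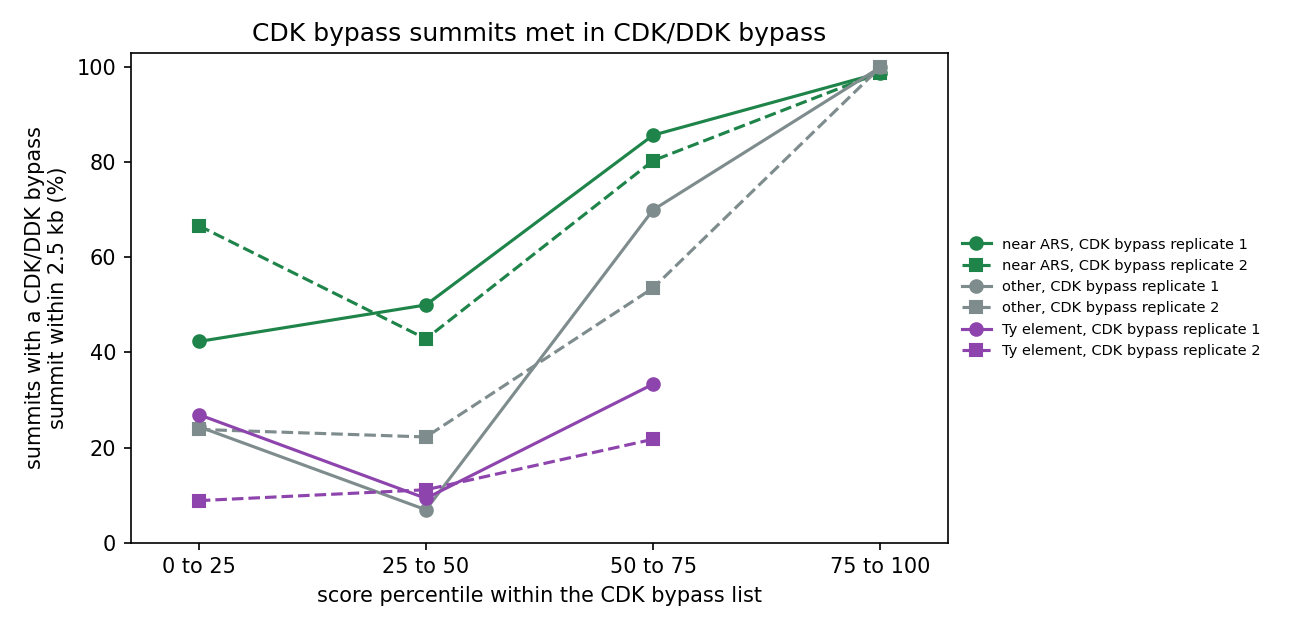
Percent of CDK bypass summits with a CDK/DDK bypass summit within 2.5 kb (y axis) by band of score percentile within each CDK bypass list (x axis), for summits near an ARS, in a Ty element or elsewhere. Points with fewer than 5 summits are left out, and Ty summits lie below those near an ARS in each band shown, with 33.3% and 21.7% against 85.7% and 80.4% from the 50th to the 75th percentile. Below the 50th percentile, Ty summits overlap those elsewhere.

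Merged windows of 5 kb on each side of the summits gave 212 regions over the 4 lists. Of these, 147 were called in all 4 lists, 28 (13.2%) in both CDK bypass lists and in neither CDK/DDK bypass list, and 4 (1.89%) the other way round. Chromosome 12 from 210298 to 495199 merged into a single region, counted among the 147. It held 111 and 100 CDK/DDK bypass summits and 15 and 20 CDK bypass summits, so the chromosome 12 segment adds nothing to the 4. Another 16 regions were missing only from CDK/DDK bypass replicate 1. Without CDK/DDK bypass replicate 2 the regions called only in CDK bypass numbered 45, and without its replicate 1 those called only in CDK/DDK bypass numbered 7. The 28 regions had a median score percentile of 45.2 in the CDK bypass lists, where the shared regions had 79.8. An ARS lay in 42.9% of the 28, in 89.8% of the shared regions and in 79.7% of all regions. A Ty summit lay in 13 of the 28, 11 of them with no ARS, and 5 regions had neither an ARS nor a Ty summit. All 13 regions with a Ty summit were called in both control lists, as were 10 of the other 15. Calls in both control lists were common, with 188 of all 212 regions and 146 of the 147 shared regions.

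Rank in CDK bypass was then held within a band for whole regions. Between the 40th and 70th percentile of the CDK bypass lists, 24 of 38 regions with an ARS and no Ty summit had a call in each CDK/DDK bypass list, and 5 in neither. Of 10 regions with a Ty summit and no ARS in the same band, 1 had a call in each CDK/DDK bypass list and 9 had none. The 11 regions of this band with neither an ARS nor a Ty summit lay between, with 4 called in each CDK/DDK bypass list and 4 in none. Above the 70th percentile, 82 of 83 regions with an ARS and no Ty summit were called in both.

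The highest-ranked region called only in CDK bypass was chromosome 14 from 630628 to 643540, which holds ARS1426 at 635664 to 635904. It scored 85.2 and 108 in the CDK bypass lists and 159 and 235 in control. ARS1426 lies 6.91 kb from centromere 14, and the highest summit lay 36 bp from it. The YHLWTy4-1 and YPLCTy4-1 regions followed. Next came chromosome 7 from 731093 to 741106, with an intergenic summit and scores of 35.3 and 54.7 in CDK bypass, and chromosome 11 from 197809 to 207829, with 24.7 and 37.0. Neither of these held an ARS, and both were called in both control lists. Of the summits outside Ty elements, the segment of chromosome 12 from 200 to 450 kb and the ARS windows, a minority lay within 1 kb of an LTR or a tRNA gene. These were 11 of 42 and 12 of 69 in CDK/DDK bypass, 29 of 109 and 32 of 101 in CDK bypass and 24 of 65 and 30 of 72 in control.

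All 4 regions called only in CDK/DDK bypass held an ARS, and their scores were low. Chromosome 8 from 240135 to 251473 (ARS813, with the summit in OSH3, an oxysterol-binding protein gene) scored 5.84 and 14.1. Chromosome 16 from 690083 to 700105 (ARS1625) scored 6.13 and 10.6. Chromosome 15 from 67547 to 78257 (ARS1507, with the summit in the glucanosyltransferase gene GAS4) scored 5.16 and 9.51. Chromosome 16 from 256282 to 267194 (ARS1612) scored 5.56 and 5.85, with its highest summit inside RAD53, the gene of the checkpoint kinase that restrains late origins in HU. None of the 4 was called in both control lists, where 188 of all 212 regions were. The ARS813 region was called in a single control list with 10.6.

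Single ARSs gave a similar balance in the full lists. CDK/DDK bypass lists called 158 and 167 of the 352 ARSs, CDK bypass lists 185 and 178, and control lists 178 and 173. Both CDK/DDK bypass lists were below the other 4 lists (difference from CDK bypass -19, exact permutation p = 0.33). In all, 141 were called in all 4 lists, 21 (5.97%) in both CDK bypass lists and in neither CDK/DDK bypass list, and 9 (2.56%) the other way round. Without CDK/DDK bypass replicate 2 the 21 became 32. Without the chromosome 12 segment and at equal list length, the 21 and 9 became 12 and 11, so the imbalance was nearly gone. Of the 21, 10 were called in both control lists and 9 in neither. Of the 9, 1 was called in both control lists and 7 in neither. For all 352 ARSs these counts were 169 and 170, so the 21 were close to the share of all ARSs. In contrast, 138 of the 141 were called in both control lists.

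Of the 21 ARSs, 5 lay within 30 kb of a chromosome end, as did 1 of the 9 called only in CDK/DDK bypass, 4 of the 141 called in all 4 lists and 51 of all 352. ARS201, ARS600, ARS736, ARS801 and ARS824 lie between 5.43 and 6.50 kb from an end. ARS201, ARS801 and ARS824 fall in regions called in all 4 lists, with the nearest CDK/DDK bypass summits 4521 to 6068 bp away. For ARS600 and ARS736 only replicate 2 of CDK/DDK bypass had a summit nearby, at 3877 and 4961 bp. ARS201 scored 21.9 and 29.4 in the CDK bypass lists, ARS600 17.1 and 22.8, ARS736 29.8 and 36.7, ARS801 26.0 and 32.4, and ARS824 29.5 and 27.8. ARS736 was called in both control lists and the other 4 in neither. The reverse case was ARS502, 4.10 kb from an end of chromosome 5, with 6.71 and 8.03 in CDK/DDK bypass and no summit in CDK bypass or control. Chromosome ends share repeated sequence, so the copy behind these summits is uncertain. Summits within 30 kb of a chromosome end made up 5.44% and 8.95% of the CDK/DDK bypass lists and 10.9% and 10.3% of the CDK bypass lists. Without the chromosome 12 segment the groups overlapped, with 8.07% and 12.1% against 11.1% and 10.6% (exact permutation p = 1).

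Inside the chromosomes, ARS1016 (74.1 and 42.8 in CDK bypass), ARS1426 and ARS212 (49.2 and 20.1) were among the best-scoring ARSs of the 21. ARS1200-2, an origin of the ribosomal DNA (rDNA) with 2872 and 2459 in CDK bypass, also counted among them, but the rDNA copy ARS1200-1 was called in all 4 lists and reads of the copies cannot be told apart.

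ARS432 had by far the highest scores of the 9 ARSs called only in CDK/DDK bypass. Its summits at 1159184 and 1159161 on chromosome 4 scored 120 and 150, at percentiles of 86.7 and 87.1 of their lists. No CDK bypass or control list had a summit closer than 7049 bp, and the nearest one there belonged to ARS453. That neighbor scored 118 and 246 in CDK/DDK bypass, 954 and 1246 in CDK bypass and 1937 and 2652 in control. ARS432 thus scored like its neighbor in CDK/DDK bypass replicate 1 and below it in replicate 2. It lies 98 bp from HXT6 and 3334 bp from HXT7, a tandem pair of nearly identical hexose transporter genes, and both CDK/DDK bypass lists had a further summit inside HXT7 (10.7 and 28.1). Reads within the pair could belong to either gene, and their copy number in these strains was not tested. This site was chosen after its values were seen. Of the other 8 ARSs, ARS1212.5 and ARS1214 lay inside the chromosome 12 segment, and the highest score outside it was 14.1.

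Shared regions were also compared by rank. In each list the 146 shared regions outside the chromosome 12 segment were ranked by their highest score, with rank 1 for the highest. In 53 regions (36.3%) both CDK/DDK bypass lists gave a better rank than both CDK bypass lists, and in 56 (38.4%) a worse rank. The lower-ranked regions lay closer to centromeres, at a median distance of 76.8 kb, while the higher-ranked regions lay at 203 kb. Of the 24 shared regions within 20 kb of a centromere, 19 (79.2%) ranked lower in CDK/DDK bypass and 2 (8.33%) ranked higher. Of the 122 regions farther away, 37 ranked lower and 51 higher.

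The control lists, which had no part in these calls, ranked the centromere regions like CDK bypass. Over the 145 regions also called in both control lists, the median rank of the 24 was 73 and 82.5 in CDK/DDK bypass, 47.5 and 47 in CDK bypass and 46 and 45 in control. ARS920, 1.63 kb from centromere 9 by the midpoint of its region, ranked 110 and 97 in CDK/DDK bypass and 42 and 39 in CDK bypass, the largest drop of all. ARS919 at 13.8 kb ranked 118 and 114 in CDK/DDK bypass and 75 and 69 in CDK bypass. ARS307 on chromosome 3 ranked 64 and 52 against 25 and 30, and ARS1, the first ARS to be isolated, ranked 89 and 94 against 57 and 73. The exceptions were the ARS415 region, with 21 and 28 against 36 and 32, and the ARS1513 region, with 35 and 39 against 48 and 40. The paper reported that sequence around the centromere was over-represented in total DNA of CDK/DDK bypass cells after G1 replication. Peaks were called against total DNA, and its bearing on these ranks was not tested.

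**Figure D3:**
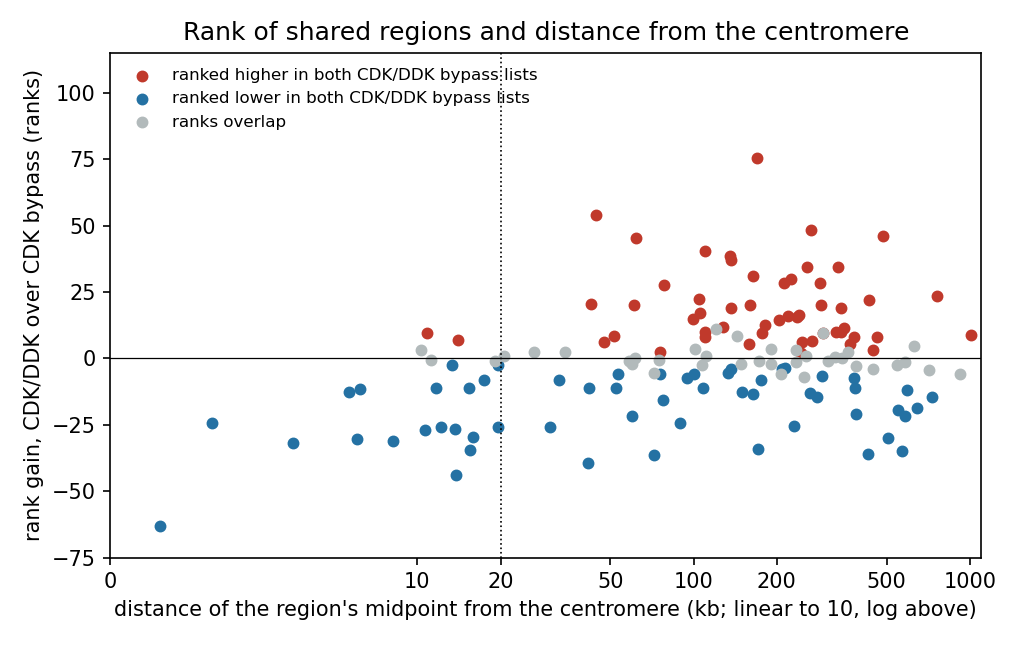
Rank gain in CDK/DDK bypass over CDK bypass (mean CDK bypass rank minus mean CDK/DDK bypass rank, y axis) of the 146 shared regions against distance from the centromere (x axis, linear to 10 kb and log above). Left of the dotted line at 20 kb, 19 of 24 regions ranked lower in both CDK/DDK bypass lists and 2 ranked higher.

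The share of summits near centromeres did not show this pattern. Within 20 kb lay 11.8% and 11.3% of the summits in CDK/DDK bypass and 13.4% and 12.6% in CDK bypass. Without the chromosome 12 segment the order turned round, at 17.5% and 15.2% for CDK/DDK bypass and 13.7% and 12.98% for CDK bypass (exact permutation p = 0.33 both times). The groups overlapped once Ty elements were left out as well, the difference then being 1.04 points (p = 0.67, exact permutation test), and at equal list length, with 0.673 (p = 1 by the same exact test). By number, 39 and 43 summits lay near centromeres in CDK/DDK bypass and 52 and 54 in CDK bypass.

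The 4 regions with the largest gain in rank lay on chromosome 16, and the next, ARS450 on chromosome 4, gained nearly as much as the last of them (45.5 against 46). ARS1618 ranked 47 and 51 in CDK/DDK bypass and 125 and 124 in CDK bypass. ARS1621 ranked 68 and 62 against 117 and 121, ARS1614 52 and 63 against 110 and 102, and ARS1605 82 and 61 against 119 and 116. Of the 13 shared regions of chromosome 16, 10 ranked higher in CDK/DDK bypass and 3 lower. Their median rank was 71 and 63 in CDK/DDK bypass, 110 and 102 in CDK bypass and 97 and 93 in control. Copy number of chromosome 16 in these strains was not tested, and the lists do not give it. ARS1612 and ARS1625, called only in CDK/DDK bypass, lie on the same chromosome. The lowest median gains were on chromosome 12 (-18.5, with 1 of 11 regions higher and 7 lower) and chromosome 2 (-17.75, with 1 of 8 higher and 7 lower). ARS231 on chromosome 2 ranked 87 and 95 in CDK/DDK bypass and 49 and 54 in CDK bypass. The fourth largest drop (-36.5) was the region of ARS721, ARS722 and ARS723 on chromosome 7, at 107 and 117 against 74 and 77, closely followed by a region without an ARS on chromosome 4 (-36) and that of ARS430 (-35).

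The number of summits within shared regions depended on the lists used. The 146 regions held 1.46 and 1.64 summits each in CDK/DDK bypass and 1.97 and 2.06 in CDK bypass. Both CDK bypass lists had more summits than both CDK/DDK bypass lists in 35 regions (24%) and fewer in 7 (4.79%). Of 24 shared regions with a Ty element, 20 were among the 35, and of 122 without one, 15. Where a region held several summits, they spanned a median of 3.01 and 2.90 kb in CDK/DDK bypass and 7.28 and 8.21 kb in CDK bypass. With the chromosome 12 region counted in, the mean was 2.204 and 2.306 in CDK/DDK bypass and 2.06 and 2.18 in CDK bypass. Without the segment, lists of equal length gave a difference of 0.153, towards more summits in CDK/DDK bypass, and full lists without Ty elements gave -0.0822 with overlapping lists (exact permutation p = 0.67).

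Summits of CDK/DDK bypass lay nearer to ARSs. Outside the chromosome 12 segment 78.5% and 73.0% lay within 2.5 kb of an ARS, against 51.2% and 48.8% in CDK bypass and 59.2% and 51.0% in control. With Ty summits left out as well, the shares were 80.5% and 74.6% in CDK/DDK bypass, 63.4% and 65.8% in CDK bypass and 73.6% and 71.9% in control. CDK/DDK bypass stayed above CDK bypass in both settings, by 25.8 and 12.96 percentage points (exact permutation p = 0.33). Without the segment at equal list length the difference was 9.64 percentage points. The median distance to the nearest ARS, again without the segment and Ty summits, in bp, was 220 and 480 for CDK/DDK bypass, 654 and 865 for CDK bypass and 460 and 792 for control. With the segment and Ty summits counted, the shares were 55.6% and 57.4% in CDK/DDK bypass, 51.7% and 49.2% in CDK bypass and 59.4% and 51.5% in control, and with Ty summits alone left out the difference turned to -7.48 percentage points. By number, 173 and 203 summits near an ARS in CDK/DDK bypass overlapped the 189 and 194 of CDK bypass.

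The segment of chromosome 12 from 200 to 450 kb, which lies just left of the rDNA, held the opposite difference. CDK/DDK bypass lists had 108 and 98 summits there, CDK bypass lists 8 and 11 and control lists 7 and 10. In all, the CDK/DDK bypass lists held 331 and 380 nuclear summits, against 387 and 427 in CDK bypass, a difference of -51.5. Without the segment there were 223 and 282 against 379 and 416, and without the segment and Ty elements 215 and 272 against 298 and 295. The segment (93.5 more summits on average) and Ty elements (-92) nearly cancelled, and with both left out the difference was -53.

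In the segment, the median distance between neighboring CDK/DDK bypass summits was 1506 and 1178 bp, and their median scores were 5.63 and 4.56. No annotated Ty element lies within the segment. Only 9 and 12 of the CDK/DDK bypass summits there lay near an ARS. Genes held 69.4% and 84.7% of them, and 42.6% and 62.8% of the summits of the same lists outside the segment. In CDK bypass the shares in genes were 37.5% and 54.5% of the 8 and 11 summits in the segment and 58.8% and 67.3% outside it. REA1, which encodes a large ribosome-assembly ATPase, had 5 and 13 summits, CSF1 had 6 and 2, and the condensin gene SMC4 had 3 and 2, with none in CDK bypass or control. Longer genes can hold more summits at this spacing, and the counts were not divided by gene length. The share of the segment that genes cover was not computed either, so no preference for genes can be read from these values. Of the 129 genes that overlap the segment, 26 had a summit in both CDK/DDK bypass lists and 4 had a summit in either of the CDK bypass lists, which hold far fewer summits there. Single positions were shared less than the segment as a whole. Of the summits of replicate 1, 50.9% had a replicate 2 summit within 500 bp, and 55.1% the other way round. Beyond the segment towards the right end, chromosome 12 had 12 and 18 summits in CDK/DDK bypass and 30 and 32 in CDK bypass. These counts include Ty elements, which held no CDK/DDK bypass summit there. In CDK bypass YLRWTy2-1 held 4 and 5 summits and YLRCTy2-2 held 1 and 2. YLRCTy1-1, YLRWTy1-2 and YLRWTy1-3 held 2 and 3 each, so this difference is in large part that of Ty elements.

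**Figure D4:**
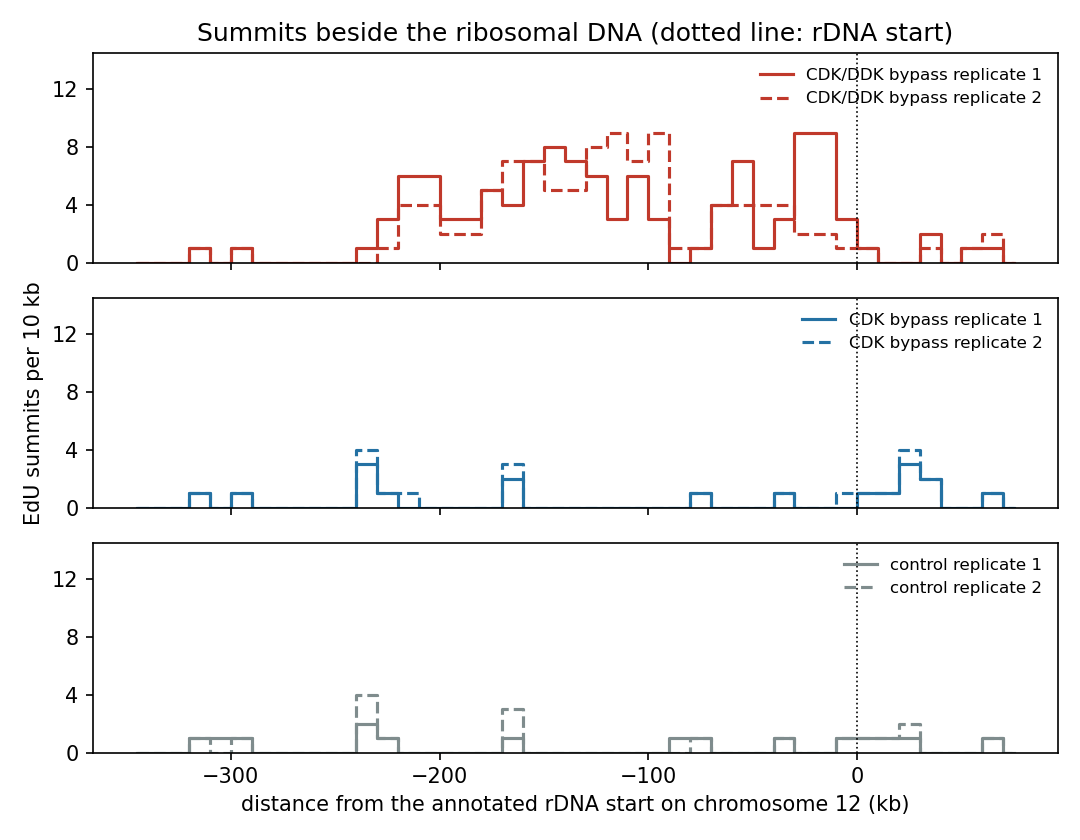
EdU summits per 10 kb (y axis) by distance from the annotated start of the rDNA on chromosome 12 (x axis, negative values lie to its left), for the replicates of each group. CDK/DDK bypass replicates hold 108 and 98 summits in the segment, against 8 and 11 in CDK bypass, and up to 9 in a bin.

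The overlap of the lists was uneven in direction. Outside the segment, the windows of 95.7% ± 0.734 of the CDK/DDK bypass summits met a CDK bypass window (mean ± SD over 4 pairs of lists, which share lists). Of the CDK bypass summits, 73.3% ± 4.94 overlapped a CDK/DDK bypass window, and 80.9% ± 5.52 once Ty summits were left out. Between replicates the mean was 93.8% in CDK/DDK bypass (87.6% in 1 direction and 100% in the other) and 97.6% in CDK bypass. List length also bears on direction, since CDK/DDK bypass lists held 223 and 282 summits there and CDK bypass lists 379 and 416. At equal list length the overlaps between the groups were 92.4% for CDK/DDK bypass summits and 82.4% for CDK bypass summits. With the segment, the values between the groups were 76.3% ± 2.55 and 73.5% ± 4.38. CDK bypass summits that met no CDK/DDK bypass window in either list numbered 75 and 97, of which 35 and 58 lay in Ty elements, 24 and 21 near an ARS and 16 and 18 elsewhere.

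**Figure D5:**
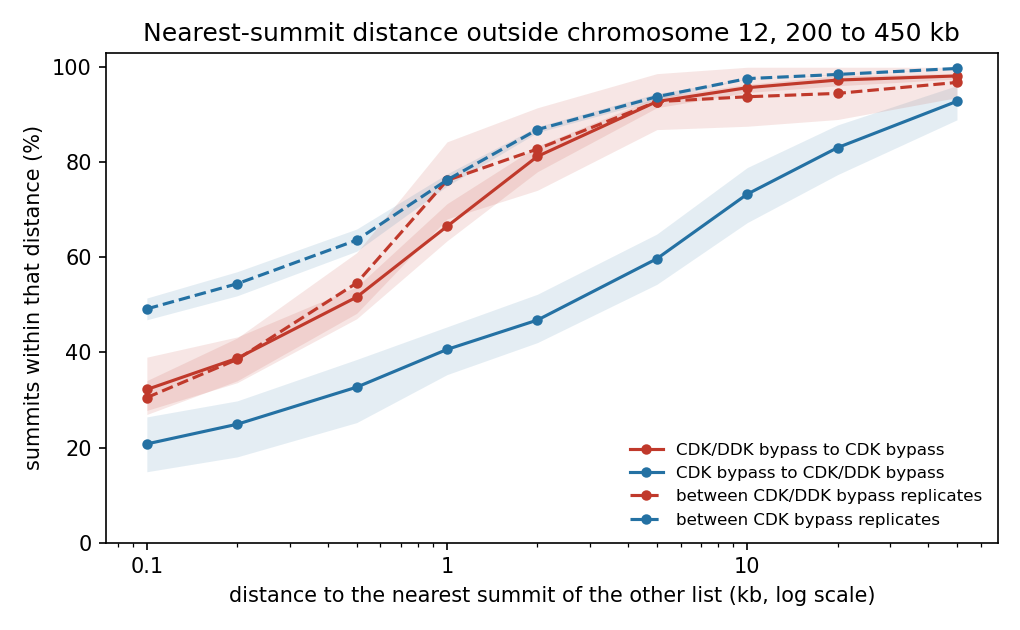
Percent of summits with a summit of another list within a given distance (y axis; x axis in kb, log scale), outside the chromosome 12 segment, between groups (solid) and between replicates (dashed), with the range over pairs shaded. At 5 kb, 92.8% of CDK/DDK bypass summits have a CDK bypass summit and 59.7% of CDK bypass summits have a CDK/DDK bypass summit.

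In all, 17 differences of group means were tested. In 16 the lists of the groups did not overlap, which with 2 lists each gives p = 0.33 by the exact permutation test and 0.354 after Benjamini-Hochberg adjustment. No difference could have passed 0.05 in this design.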

How the data were processed

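The authors aligned paired-end reads to sacCer3 with BWA 0.7.17-r1188 and called peaks with MACS2 2.2.7.1 per sample against its total DNA at a stated q-value limit of 0.1. The deposited lists give each summit with a score, the −log10 of its q-value. How reads of repeats were placed for peak calling is not given in the sources used here. The other 216 samples were not analysed here.

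Nuclear summits were compared with the R64 annotation (352 ARSs, 50 Ty elements). Regions were merged windows of 5 kb on each side with at least 1 bp in common. An ARS was called with a summit within 2.5 kb. Differences of group means had an exact permutation test, two-sided, with Benjamini-Hochberg adjustment. Python 3.11.15, numpy 2.4.6 and matplotlib 3.10.9 were used. Functions were tested on simulated lists, where 20 of 20 lost and 10 of 10 gained sites were recovered among 224. The simulated sites lay far apart, with a single summit each and no missed calls. The test therefore checks the functions only, not how well sites are found in the real lists.

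Members and lists were chosen with earlier results of these data known. The rule named the 5 best regions called only in CDK bypass, up to 5 called only in CDK/DDK bypass, the 4 largest gains and the 4 largest drops in rank, and the known origins. The printed sequences include ARS106, ARS432, ARS1020 and ARS1529, which this rule did not name. The study of Ty elements, of ranks by chromosome and centromere, and of matched percentiles was added after the data were seen. Alternatives were the chromosome 12 segment left out, a score of at least 2, equal list length, 1 summit per 5 kb, other distances and windows, mitochondrial DNA included, each list left out, the replicate block and, added later, Ty elements left out.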

Additional observations from a re-analysis of the deposited data

Results flagged for a closer look

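Summits on mitochondrial DNA, which entered none of the comparisons, averaged 68.5 in CDK/DDK bypass lists, with 70 and 67. CDK bypass lists held 8 and 4 and control lists 28 and 22, so both CDK/DDK bypass lists lay above every other list.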

How the results depend on the processing

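Leaving out the chromosome 12 segment turned round the difference (CDK/DDK bypass minus CDK bypass) in summits per shared region, to -0.503 with regions built anew, and in the centromere share, to 3.02 percentage points, and it moved the overlap of CDK/DDK bypass summits to 95.7%. With equal list length as well, the centromere share was 0.673, and the overlaps were 92.4% for CDK/DDK bypass summits and 82.4% for CDK bypass summits. In that setting 20 regions were called only in CDK bypass and 8 only in CDK/DDK bypass. For ARSs these counts were 12 and 11, and 19 Ty elements were called only in CDK bypass. With 1 summit per 5 kb, summits per shared region differed by -0.133 and the overlaps were 87.1% and 78.1%. With windows of 1 kb the overlaps were 59.5% and 47.3%, 100 regions were called only in CDK bypass and 29 only in CDK/DDK bypass. With 2.5 kb the overlaps were 69.6% and 59.9%, and 50 regions were called only in CDK bypass. With mitochondrial DNA the difference in summits was 11.

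Leaving out Ty elements, a choice made after the data were seen, gave 40.5 for nuclear summits, -7.48 percentage points for the share near an ARS, 81.0% for the overlap of CDK bypass summits and 18 regions called only in CDK bypass. Without Ty elements and the segment, summits per shared region differed by -0.0822, the centromere share by 1.04, the overlaps were 95.5% and 80.9%, and 18 regions were called only in CDK bypass.

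Leaving out 1 list at a time gave 29 to 45 regions called only in CDK bypass (45 without CDK/DDK bypass replicate 2), 4 to 7 only in CDK/DDK bypass (7 without its replicate 1), 22 to 32 ARSs only in CDK bypass, 10 to 13 only in CDK/DDK bypass and 37 to 41 Ty elements only in CDK bypass. The difference ranged from -76 to -27 for nuclear summits, 4.80 to 7.30 for the share near an ARS, 0.0733 to 0.203 for summits per shared region, -5.14 to -1.63 for chromosome ends, -1.89 to -1.10 for centromeres and -112 to -72 for Ty summits. The overlaps ranged from 74.5% to 78.2% for CDK/DDK bypass summits and from 70.3% to 76.7% for CDK bypass summits. With the replicate block, where only same-numbered lists were compared, a mean of 44.5 regions and 33 ARSs were called only in CDK bypass and 7 regions and 14 ARSs only in CDK/DDK bypass, since a call in a single list then sufficed. Same-numbered lists deviated together with a correlation of 0.270 over 146 regions, and with 2 pairs the block gives no exact p under 0.5. Of 159 alternatives, 9 turned a difference round and 27 moved an overlap beyond its spread or a count by over 1.5 times. The other 123 kept the direction of a difference, though not always its size (Ty summits differed by -23 at equal list length), or stayed within those limits. The cause was not tested for any other of these shifts.

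The depth of each list is unknown, calls in Ty elements, the rDNA, chromosome ends and HXT6 with HXT7 rest on repeated sequence, and each group is a single strain. A difference between groups therefore cannot be told apart from one between strains.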
